A study of Mus musculus with 20 samples.

Results

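Complement components and regulators are described here in mouse liver: 30 genes, chosen by gene symbol from a table of 38924 genes. They were read apart by main source as known from general biology: 17 made chiefly by hepatocytes, 8 made chiefly by macrophages and other myeloid cells, and 5 from other cells or with no single source. RNA-seq was performed on the livers of 20 male mice, 5 per group. WT mice and mice labelled as TSP-1 knockouts (thrombospondin-1, gene Thbs1) were bought at 5 weeks of age and acclimated for 1 week. The labels give the strain of all 20 mice, WT and knockout, as C57/BL6, and the paper adds the substrain letter J. The mice were fed for 12 weeks either control chow or CDAHFD, used as a model of non-alcoholic steatohepatitis. CDAHFD is a high fat diet, lacking choline and limited in methionine, in which defined amino acids replace protein. WT mice formed the groups NDWT (control diet) and HFWT (CDAHFD) and the TSP-1 null mice, called null mice below, the groups NDKO and HFKO. The labels name no other agent. Each library came from 1 mouse and 1 piece of whole liver. The series text names the right medial lobe and the paper's methods the right lateral lobe. The labels do not say whether WT and knockout mice were littermates. The paper's methods describe both as purchased from The Jackson Laboratory, the knockouts under their own stock number, so genotype and breeding line cannot be told apart.

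Complement is a cascade of plasma proteins that tags and kills microbes and clears debris. It is started by C1q bound to antibody or dying cells (classical pathway), by mannose-binding lectins and ficolins bound to sugars (lectin pathway), or by spontaneous turnover of C3 kept up by factors B and D and properdin (alternative pathway). All routes cleave C3, the fragments of C3 and C5 signal to leukocytes through receptors, and C5 to C9 assemble into a membrane pore. The liver is the chief source of most circulating components, while C1q comes from macrophages, among them the Kupffer cells that reside in the liver sinusoids.

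The values are FPKM, fragments per kilobase of gene length scaled to the fragments assigned to genes in each library, so levels of different genes can be compared per length. Libraries held 15641546 to 23276322 assigned fragments. limma was applied to log2(FPKM + 0.1) of 14524 genes that exceeded 0.5 FPKM in at least 5 libraries, among them 29 of the 30 complement genes. A gene is called higher or lower where the Benjamini-Hochberg adjusted p (FDR, two-sided, over all 14524 genes) is under 0.05 and the absolute log2 fold change (log2FC) exceeds 0.58. Fold changes are on the log2(FPKM + 0.1) scale, which understates changes of genes near 0. They are given with their standard error, and levels as mean ± SD over 5 mice. The targeted gene did not follow the genotype labels: Thbs1 read 0.17, 0.326, 0.268, 0.058 and 0.165 FPKM in NDWT, 5.77, 6.1, 3.46, 3.91 and 3.86 in HFWT, 1, 1.5, 0.986, 1.9 and 1.13 in NDKO and 3.3, 3.32, 3.05, 3.14 and 4.4 in HFKO. It was higher in libraries labelled TSP-1 null on the control diet (log2FC 2.28 ± 0.24, FDR 1.02e-05) and not separated on CDAHFD (log2FC −0.39 ± 0.24, FDR 0.408). Every genotype difference below is therefore one between labels. Hepatocyte markers were present in every library, with albumin (Alb) at 25052 ± 2899.9 in NDWT, 22996 ± 3555 in HFWT, 27881 ± 3397 in NDKO and 29725 ± 4211 in HFKO.

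On CDAHFD most called hepatocyte-made complement genes were lower and most called macrophage-made ones higher, while many hepatocyte-made genes were not called. Of the 29 tested, 7 were called higher and 9 lower in WT, where 44.1% of all tested genes were called higher and 4.62% lower. In TSP-1 null mice 8 were called higher and 5 lower, beside 41.9% and 4.0% of all genes. The hepatocyte-made genes gave 1 higher, 7 lower and 9 not called of 17 in WT and 1 higher, 4 lower and 12 not called in null mice. The macrophage-made genes gave 5 higher, 1 lower and 2 not called of 8 in both genotypes. The classes were not tested against each other. The diet raised the median of all tested genes by 0.53 in WT and 0.50 in null mice on the log2 scale. Beside that, the median log2FC was −0.49 and −0.43 for the hepatocyte-made genes and 1.51 and 1.31 for the macrophage-made genes. FPKM are shares of a library, and with the libraries scaled by median of ratios, which brings the median of all genes to near 0, the 7 higher and 9 lower members in WT became 6 and 14, and the 8 and 5 in null mice became 6 and 13. Under that scaling the calls among all genes shifted too, to 22.7% higher and 15.4% lower in WT and 22.2% and 13.6% in null mice. Of 12 hepatocyte markers, 0 were called higher and 3 lower in WT and 0 and 4 in null mice, with a median log2FC of −0.29 and −0.42 and none at 0 in all libraries of a group. Their summed FPKM ranged over 44384 to 53175 in NDWT, 34341 to 49115 in HFWT, 52127 to 60785 in NDKO and 45117 to 56747 in HFKO. The part of these shifts in the hepatocyte-made complement values was not tested. In a bulk library, fewer cells of a type and less RNA per cell cannot be told apart.

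**Figure D1:**
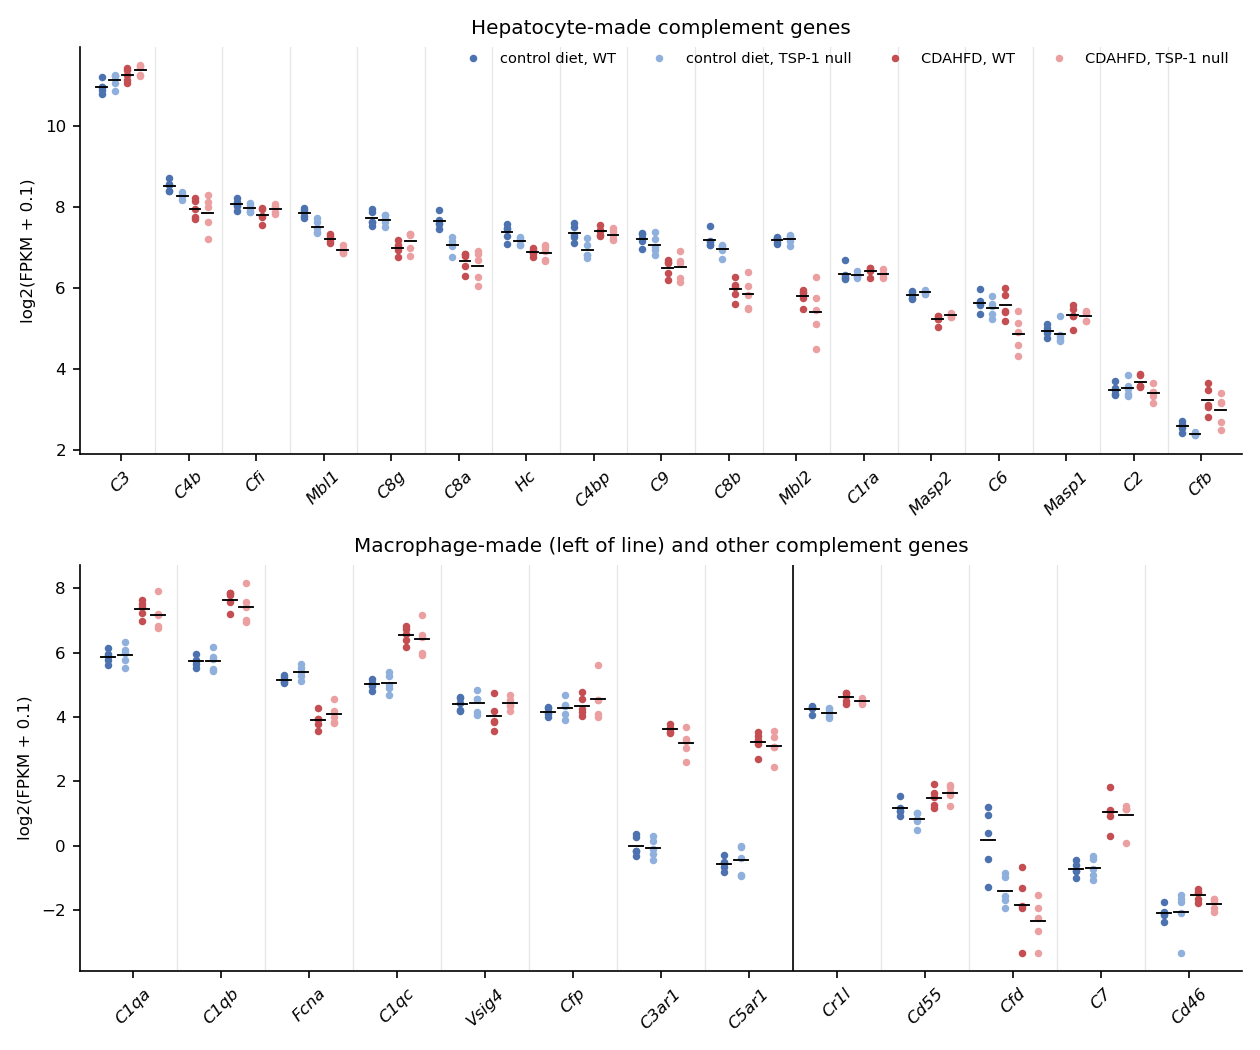
Level of each complement gene in each of 20 libraries as log2(FPKM + 0.1), with hepatocyte-made genes above and macrophage-made and other genes below. Points are mice (5 per group), horizontal bars are group means, and genes are ordered by their mean in NDWT within each source. C1qa, C1qb, C1qc, C3ar1 and C5ar1 sit higher in every CDAHFD library than in any control diet library of the same genotype, and Mbl2, C8b and Fcna sit lower.

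C3, the protein on which all 3 pathways converge, was the most abundant complement transcript in every group and did not overlap the next gene in the order, C4b or Cfi. C3 read 1784, 1987, 1991, 2373 and 1888 FPKM in NDWT, 2748, 2662, 2138, 2441 and 2272 in HFWT, 2431, 2128, 2457, 2422 and 1862 in NDKO and 2889, 2881, 2423, 2434 and 2839 in HFKO. The CDAHFD libraries lay toward the upper end but overlapped the control libraries in both genotypes. The differences (log2FC 0.29 ± 0.10, FDR 0.0147 in WT, and log2FC 0.26 ± 0.10, FDR 0.0299 in null mice) were below the fold threshold, and their direction turned with the scaling: median of ratios gave −0.27 and −0.28, and quantile normalization 0.57 and 0.62, the latter a call higher in null mice (FDR 2.37e-04). Summed over the 17 hepatocyte-made genes, C3 held 46.5 ± 2.78% of the FPKM in NDWT, 60.6 ± 3.34% in HFWT, 53 ± 3.86% in NDKO and 63.7 ± 0.641% in HFKO. The other 16 together summed to 2298 ± 132 in NDWT, 1589 ± 106 in HFWT, 1997 ± 104 in NDKO and 1538 ± 154 in HFKO. Both CDAHFD groups lay below both control groups in that sum, from 1376 to 1724 in HFKO and 1443 to 1700.4 in HFWT to 2120.1 to 2432 in NDWT.

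The lectin pathway held the hepatocyte-made gene with the largest fall in either genotype. Mbl2, which encodes mannose-binding lectin C, a sugar-binding starter of the pathway, read 137, 153, 141, 151 and 150.2 FPKM in NDWT, 44.9, 54, 61.4, 58.6 and 60 in HFWT, 153, 143, 132, 158 and 157 in NDKO and 44.1, 53.5, 22.3, 76.7 and 34.7 in HFKO. Every control library lay above every CDAHFD library, and HFKO was far more scattered than HFWT. Mbl2 fell in WT (log2FC −1.40 ± 0.21, FDR 5.44e-06) and in null mice (log2FC −1.80 ± 0.21, FDR 2.47e-07). Its relative Mbl1, encoding mannose-binding lectin A, read 231 ± 16.2 in NDWT, 149 ± 9.44 in HFWT, 184 ± 21 in NDKO and 122 ± 7.2 in HFKO, and fell by less (log2FC −0.63 ± 0.07, FDR 3.52e-07, and log2FC −0.59 ± 0.07, FDR 9.79e-07), again without overlap. The Mbl1 call in null mice, close to the fold threshold, was lost without NDKO replicate 3 or 4 or HFKO replicate 3 or 4, and the Mbl1 calls in both genotypes were lost under quantile normalization (−0.55 and −0.52). The ratio of Mbl1 to Mbl2 was 1.59 ± 0.154 in NDWT, 2.73 ± 0.503 in HFWT, 1.25 ± 0.218 in NDKO and 3.11 ± 1.39 in HFKO. Masp2, the serine protease that cleaves C4 and C2 once a lectin has bound, read 56.7 ± 3.7 in NDWT, 37.4 ± 2.79 in HFWT, 59.8 ± 1.94 in NDKO and 40.3 ± 1.44 in HFKO, with no overlap between diets in either genotype. It was called lower in WT (log2FC −0.60 ± 0.06, FDR 2.12e-08) but not in null mice (log2FC −0.57 ± 0.06, FDR 5.39e-08), where its change was just under the fold threshold, and the WT call was lost without NDWT replicate 2 or HFWT replicate 5. It was called lower in null mice too under median of ratios (−1.10) and quantile normalization (−0.73). On the opposite strand, Tardbp covers 54.9% of the Masp2 exon bases, and whether counting used strand is not given in the sources used here. Masp1, a protease that activates Masp2, was not called: its level was 30.8 ± 2.79 in NDWT, 40.4 ± 6.17 in HFWT, 29.7 ± 5.75 in NDKO and 39.9 ± 3.22 in HFKO (log2FC 0.38 and 0.44, but −0.18 and −0.09 under median of ratios).

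The promoters of the 2 mannose-binding lectins are shown because both genes fell on CDAHFD and by different amounts. Each runs from 250 bases before to 50 after the start of transcription (RefSeq, GRCm38.p6, 5′ to 3′). Capitals mark the longest run of letters the pair shares, 13 bases that begin 23 bases before the Mbl1 start and 57 before the Mbl2 start, and that 3 of 32851 promoters hold on either strand.
Mbl1 (chr14:41151206-41151505, plus strand): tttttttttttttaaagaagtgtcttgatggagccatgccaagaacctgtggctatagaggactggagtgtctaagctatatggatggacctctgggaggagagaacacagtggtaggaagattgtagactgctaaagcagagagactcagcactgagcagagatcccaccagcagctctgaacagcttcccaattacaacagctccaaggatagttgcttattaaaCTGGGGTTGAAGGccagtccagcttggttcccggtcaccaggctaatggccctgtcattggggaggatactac
Mbl2 (chr19:30232678-30232977, plus strand): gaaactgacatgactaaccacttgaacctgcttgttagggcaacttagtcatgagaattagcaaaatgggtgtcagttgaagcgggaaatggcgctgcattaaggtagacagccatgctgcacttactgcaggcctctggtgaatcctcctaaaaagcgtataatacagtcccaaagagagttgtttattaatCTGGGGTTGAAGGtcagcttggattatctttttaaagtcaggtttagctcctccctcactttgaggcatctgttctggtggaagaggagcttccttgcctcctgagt
On both strands, 3 short motifs were searched for in the promoters of the 24 complement genes that had an entry: GAGGAAGT for PU.1, a myeloid factor, GTTAAT for a half-site of the hepatocyte factor HNF1, and TTGCNNAA for C/EBP. They are held by 3.20%, 7.10% and 10.8% of all promoters. Neither lectin promoter held any of them. Of the 12 hepatocyte-made genes with an entry, 5 held the HNF1 half-site (C1ra, C4bp, C8a, C8b and Hc), 3 the C/EBP motif (C1ra, C3 and C9) and 0 the PU.1 motif. Of the 5 genes from other sources, 2 held the HNF1 half-site (C7 and Cd55) and 0 either of the others.

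Several pore-forming terminal components of hepatocyte origin were called lower on CDAHFD. C7, also part of the pore but classed with other sources, is not counted here and was called higher in both genotypes (log2FC 1.78 and 1.64). C5 (gene Hc), C6, C8a, C8b, C8g and C9 summed to 929.5 ± 61.5 in NDWT, 552 ± 53.3 in HFWT, 792 ± 61.4 in NDKO and 542 ± 66.9 in HFKO, and per unit of C3 to 0.467 ± 0.05 in NDWT, 0.228 ± 0.0367 in HFWT, 0.356 ± 0.0664 in NDKO and 0.201 ± 0.0108 in HFKO. The highest CDAHFD sum in WT, 600.0, lay below the lowest control sum, 846, and in null mice the highest, 629, lay below the lowest, 715. In WT 4 of these 6 were called lower (C8a, C8b, C8g and C9), beside 4.62% of all tested genes. In TSP-1 null mice 2 were (C6 and C8b), beside 4.0%. With median of ratios all 6 were called lower in both genotypes, where lower calls among all genes also rose, to 15.4% in WT and 13.6% in null mice. No interaction of diet with genotype was called for any of the 6. C8b, the chain of C8 that docks onto C5b-7, read 134, 186, 144, 140.5 and 134 FPKM in NDWT, 64.8, 48.8, 77.8, 67.1 and 57.4 in HFWT, 132, 106, 123, 133 and 132 in NDKO and 66, 84.1, 45.6, 44.4 and 56.9 in HFKO. No CDAHFD library reached the control range in either genotype. C8b fell in WT (log2FC −1.23 ± 0.15, FDR 7.07e-07) and in null mice (log2FC −1.11 ± 0.15, FDR 2.79e-06).

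C8a, the C8 chain that enters the membrane, read 176, 194, 243, 191 and 206 FPKM in NDWT, 115, 79, 110.5, 115 and 93.9 in HFWT, 142, 109, 132, 137 and 152 in NDKO and 104, 119.7, 77.1, 66.3 and 115 in HFKO. The NDWT libraries stood above all others, and NDKO overlapped HFKO. C8a fell in WT (log2FC −0.98 ± 0.15, FDR 8.90e-06). It was not called in null mice (log2FC −0.51 ± 0.15, FDR 0.00539), and the difference between the genotypes in its response was not called either (log2FC 0.48 ± 0.21, FDR 0.292). C8g, a lipocalin-like chain linked to C8a, read 213 ± 26.3 in NDWT, 128 ± 13.6 in HFWT, 207 ± 17.9 in NDKO and 144 ± 23.2 in HFKO (log2FC −0.73, FDR 7.84e-06 in WT, and −0.53, FDR 2.64e-04 in null mice), with no overlap in either genotype. C9, which polymerizes into the wall of the pore, read 149 ± 15.8 in NDWT, 91.1 ± 12.9 in HFWT, 135 ± 21.8 in NDKO and 93.4 ± 20 in HFKO (log2FC −0.71, FDR 1.35e-04, and −0.55, FDR 0.00168). Hc fell short of the fold threshold at −0.49 and −0.29. C6 read 63.8, 36.3, 57, 43.5 and 42.6 in HFWT and 29.9, 43.3, 23.9, 19.9 and 34.9 in HFKO against 50.4 ± 8.01 in NDWT and 45.9 ± 6.97 in NDKO. It was called lower in null mice (log2FC −0.63 ± 0.19, FDR 0.00503) although the groups overlapped, and not in WT (log2FC −0.07 ± 0.19, FDR 0.753), though it was called lower in WT under median of ratios (−0.63, FDR 0.00638). The difference between the genotypes in its response was not called (log2FC −0.56 ± 0.26, FDR 0.315). That call was lost without NDKO replicate 5 or HFKO replicate 3 or 4, while C8a and C9 were also called lower in null mice without NDKO replicate 2 or HFKO replicate 2 or 5, and C9 without NDKO replicate 4.

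C8a and C8b lie tail to tail on chromosome 4 with 11.1 kb between them (GRCm38), and their promoters are shown because both genes fell and each holds the HNF1 half-site, marked in capitals, on 1 strand or the other.
C8a (chr4:104876349-104876648, minus strand): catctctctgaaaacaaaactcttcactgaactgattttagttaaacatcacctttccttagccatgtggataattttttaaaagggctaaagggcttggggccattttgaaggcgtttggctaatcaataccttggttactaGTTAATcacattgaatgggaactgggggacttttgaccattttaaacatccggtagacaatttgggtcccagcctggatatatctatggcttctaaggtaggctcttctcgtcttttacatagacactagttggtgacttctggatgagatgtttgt
C8b (chr4:104766067-104766366, plus strand): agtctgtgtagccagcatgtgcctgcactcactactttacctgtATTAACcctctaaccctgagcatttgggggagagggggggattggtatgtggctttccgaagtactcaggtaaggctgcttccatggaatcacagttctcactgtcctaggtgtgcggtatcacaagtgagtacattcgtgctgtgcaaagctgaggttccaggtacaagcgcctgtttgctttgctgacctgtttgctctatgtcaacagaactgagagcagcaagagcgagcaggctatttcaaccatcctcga
The half-site begins 107 bases before the C8a start and 206 before the C8b start. It is the only one of the 3 motifs found in either promoter.

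**Figure D2:**
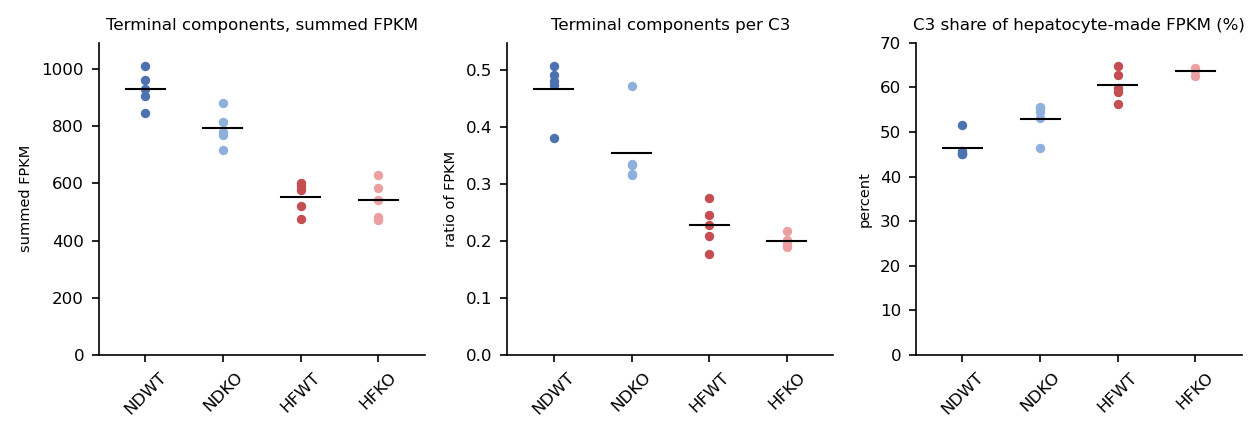
Summed FPKM of the 6 hepatocyte-made terminal components, without C7 (left), the same sum divided by the FPKM of C3 (middle), and the percent of hepatocyte-made complement FPKM held by C3 (right), in each of 20 libraries with group means as bars. The terminal sum goes from a mean of 929.5 ± 61.5 in NDWT to 552 ± 53.3 in HFWT (± SD), and the points of the 2 groups do not overlap.

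None of the early classical components of hepatocyte origin was called on FPKM as deposited, though some were under another scaling. C4b, encoding C4, the substrate of the C1 and lectin proteases, read 370.1 ± 34.6 in NDWT, 251 ± 40.9 in HFWT, 312 ± 15.5 in NDKO and 239 ± 65.3 in HFKO, a difference of −0.57 (FDR 0.00233) in WT and −0.43 (FDR 0.0159) in null mice that stayed under the fold threshold, though it was called in WT without NDWT replicate 1 or 5 or HFWT replicate 1 or 4. Under median of ratios it was called lower in both (−1.13, FDR 1.63e-06, and −0.97, FDR 1.28e-05). The near-identical C4a could share its fragments. C1ra, the protease that activates C1s, was at 82.4 ± 12 in NDWT, 86 ± 5.93 in HFWT, 79.5 ± 3.59 in NDKO and 81.2 ± 4.87 in HFKO, and C2, the serine protease of the classical C3 convertase, at 11.2 ± 1.13 in NDWT, 12.9 ± 1.49 in HFWT, 11.6 ± 1.76 in NDKO and 10.5 ± 1.31 in HFKO. Neither was called in either genotype, but C2 was called lower in null mice under median of ratios (−0.67, FDR 4.94e-05). Factor B (Cfb), the counterpart of C2 in the alternative pathway, was the only hepatocyte-made member called higher, from 5.91 ± 0.447 in NDWT, 9.48 ± 2.24 in HFWT, 5.18 ± 0.128 in NDKO and 8.06 ± 2.06 in HFKO (log2FC 0.65 ± 0.16, FDR 9.67e-04, and log2FC 0.59 ± 0.16, FDR 0.00211), without overlap. Set against the median of all genes its change was 0.11 and 0.09, and it was not called under median of ratios (0.09 and 0.06) or quantile normalization (0.10 and 0.04) or with a pseudocount of 1 (FDR 9.74e-04 and 0.0024, but under the fold threshold), nor without HFWT replicate 5 in WT or HFKO replicate 1, 2 or 5 in null mice. A read-through gene, Gm20547, shares 79.5% of the Cfb exon bases and 42.8% of those of C2 on the same strand, and was listed at means of at most 0.0064 FPKM. How fragments in the shared bases were counted is not given in the sources used here, so the levels of Cfb and C2 are uncertain.

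The soluble inhibitors from hepatocytes were not called in either genotype's diet comparison on FPKM as deposited. Factor I (Cfi), the protease that inactivates C3b and C4b, read 268 ± 21.3 in NDWT, 226 ± 27.1 in HFWT, 252 ± 17.5 in NDKO and 249 ± 17.9 in HFKO, with differences of −0.26 (FDR 0.00914) and −0.01 (FDR 0.884). Under median of ratios it was called lower in WT (−0.82, FDR 7.14e-07). C4bp, its cofactor for C4b, read 166 ± 22.7 in NDWT, 169 ± 12.9 in HFWT, 123 ± 17.8 in NDKO and 160 ± 13.7 in HFKO, with 0.04 (FDR 0.74) in WT and 0.38 (FDR 0.00213) in null mice. The sign of the C4bp difference turned under median of ratios in both genotypes.

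**Figure D3:**
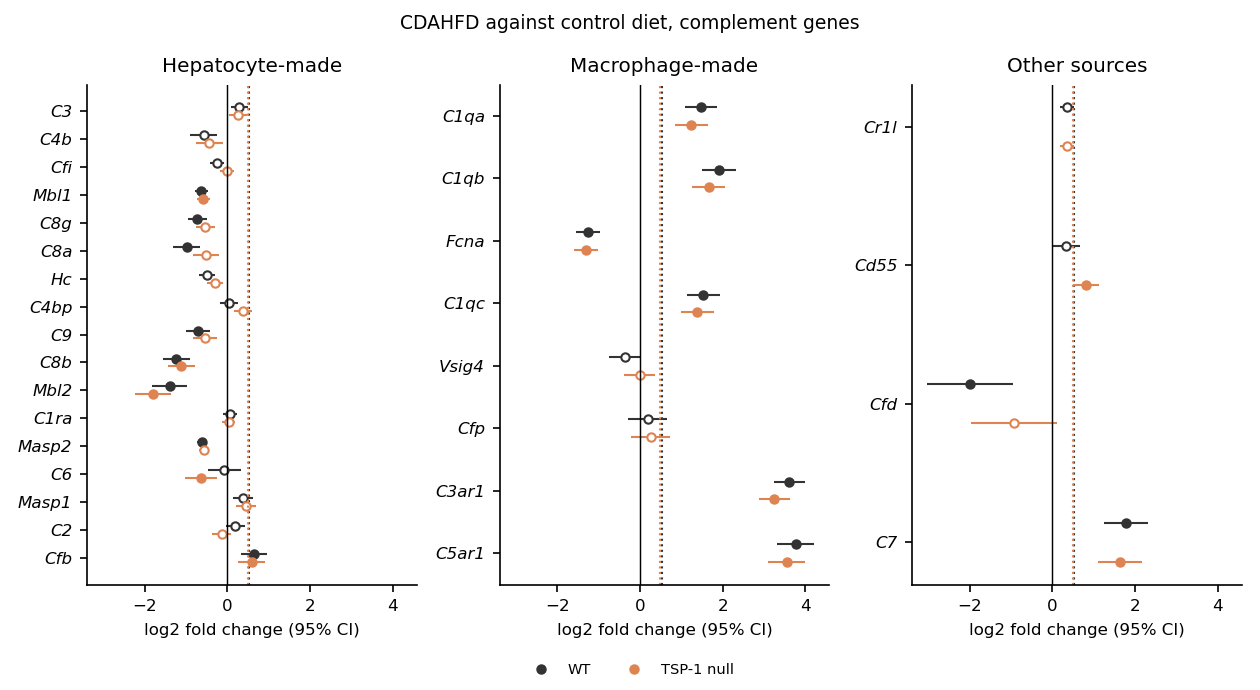
log2FC of CDAHFD against control diet for the 29 tested complement genes, by source, in WT (dark) and TSP-1 null (orange) mice, with 95% confidence intervals from limma as lines. Filled points passed both thresholds and open points did not, and dotted lines mark the median of all 14524 tested genes. The macrophage-made C1q chains and anaphylatoxin receptors lie to the right of those lines, and in WT every hepatocyte-made gene except Cfb lies to the left.

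The macrophage-made genes were led by the receptors and C1q. C5ar1, the receptor for the leukocyte attractant C5a, read 0.602, 0.536, 0.721, 0.59 and 0.468 FPKM in NDWT, 11.4, 8.8, 10.4, 9.6 and 6.44 in HFWT, 0.886, 0.668, 0.895, 0.438 and 0.423 in NDKO and 8.32, 8.36, 10.3, 5.36 and 11.7 in HFKO. C3ar1, the receptor for C3a, read 1.11, 0.71, 1.2, 0.799 and 0.803 FPKM in NDWT, 12.4, 12.2, 13.6, 11.4 and 11.3 in HFWT, 1.15, 0.828, 0.733, 1 and 0.632 in NDKO and 8.11, 9.46, 9.92, 5.96 and 12.8 in HFKO. For both, the lowest CDAHFD library was several times the highest control library of its genotype. C5ar1 rose by 3.77 ± 0.21 in WT and 3.56 ± 0.21 in null mice (log2FC, limma FDR 1.69e-11 and 5.00e-11). C3ar1 rose by 3.61 ± 0.18 and 3.25 ± 0.18 (FDR 3.12e-12 and 1.53e-11). Of the 29 members these 2 had the highest log2FC in both genotypes.

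The 3 chains of C1q, which recognizes antibody, pentraxins and dying cells, are encoded side by side on chromosome 4 within 18.7 kb (136880129 to 136898803, GRCm38, minus strand), each with 3 exons. C1qa read 61.7, 70.5, 59.1, 48.4 and 54.9 FPKM in NDWT, 196, 149, 182, 171 and 128 in HFWT, 79.8, 53.9, 67.8, 63.6 and 45.5 in NDKO and 108, 147, 145, 114 and 242 in HFKO. C1qb read 53, 62.2, 55, 45.5 and 50.4 FPKM in NDWT, 229, 188, 220, 229 and 147 in HFWT, 72.1, 45.3, 58.2, 55.1 and 43.4 in NDKO and 129, 169, 191, 122 and 286 in HFKO. C1qc read 33.5, 36.2, 32.6, 27.6 and 31.3 FPKM in NDWT, 113, 84.7, 105, 96.3 and 71.8 in HFWT, 41.8, 29.5, 38.7, 31.7 and 25.8 in NDKO and 63.9, 89.5, 94.2, 61 and 145 in HFKO. For each chain every CDAHFD library stood above every control library, and 1 HFKO library stood above all others in all 3. C1qa rose by 1.48 and 1.25, C1qb by 1.91 and 1.66, and C1qc by 1.53 and 1.38 (log2FC in WT and TSP-1 null mice, SE 0.19 for each, limma FDR at most 7.60e-06). In WT the rise carried C1qb from below the C8 chains, C9, Mbl1 and Mbl2 to the fourth most abundant member, after C3, C4b and Cfi, though it overlapped C4b and Cfi.

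The chains did not keep one proportion. The FPKM of C1qb over C1qc was 1.65 ± 0.0554 in NDWT, 2.15 ± 0.147 in HFWT, 1.64 ± 0.111 in NDKO and 1.98 ± 0.0557 in HFKO: the CDAHFD libraries, from 1.89 to 2.02 in HFKO and 2.02 to 2.38 in HFWT, all exceeded the control libraries, which ranged from 1.5 to 1.74 in NDKO and 1.58 to 1.72 in NDWT. The FPKM of C1qa over C1qc was 1.82 ± 0.0788 in NDWT, 1.75 ± 0.0231 in HFWT, 1.85 ± 0.108 in NDKO and 1.68 ± 0.123 in HFKO, with overlap between diets. These and the ratios below were chosen after the values were seen and carry no test. They do not depend on the scaling of the libraries.

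Promoters of C1qb and C1qc are shown because the genes rose together from neighbouring starts while their proportion shifted. Capitals mark the only match to the 3 motifs, an 8-letter PU.1 match that begins 195 bases before the C1qc start.
C1qb (chr4:136886151-136886450, minus strand): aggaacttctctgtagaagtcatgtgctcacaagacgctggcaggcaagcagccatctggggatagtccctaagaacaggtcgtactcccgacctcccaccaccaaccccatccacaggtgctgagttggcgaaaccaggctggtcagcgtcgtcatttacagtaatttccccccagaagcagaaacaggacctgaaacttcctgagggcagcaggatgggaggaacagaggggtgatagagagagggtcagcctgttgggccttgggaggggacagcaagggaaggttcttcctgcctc
C1qc (chr4:136892865-136893164, minus strand): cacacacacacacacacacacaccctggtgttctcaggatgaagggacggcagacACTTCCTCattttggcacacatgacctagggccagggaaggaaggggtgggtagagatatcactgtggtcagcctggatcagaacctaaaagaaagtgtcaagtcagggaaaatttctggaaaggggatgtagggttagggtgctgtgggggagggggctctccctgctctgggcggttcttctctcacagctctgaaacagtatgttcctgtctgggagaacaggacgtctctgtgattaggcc
The longest run the pair shares is 10 bases, a run that 49 of all promoters hold. Of the 7 macrophage-made genes with a promoter entry, C1qc alone held the PU.1 motif, and Cfp alone the HNF1 half-site. C1qa had no entry.

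The other macrophage-made genes did not follow C1q. Fcna, encoding ficolin A, a lectin pathway starter known from Kupffer cells and other tissue macrophages, read 37.6, 39.5, 33.6, 33.3 and 34.6 FPKM in NDWT, 13.7, 15.2, 19.5, 11.7 and 15.2 in HFWT, 49.6, 38.7, 45.8, 42.4 and 34.3 in NDKO and 16, 23.5, 13.8, 18.3 and 14.2 in HFKO. All CDAHFD libraries lay below all control libraries, and Fcna fell in WT (log2FC −1.26 ± 0.14, FDR 1.56e-07) and in null mice (log2FC −1.31 ± 0.14, FDR 1.05e-07). Vsig4, the complement receptor of the immunoglobulin family by which Kupffer cells capture C3b-coated particles, was not called, at 21.3 ± 2.93 in NDWT, 17.1 ± 5.79 in HFWT, 22 ± 4.93 in NDKO and 21.6 ± 2.88 in HFKO (log2FC −0.36, FDR 0.0785, and −0.01, FDR 0.979). It was called lower in WT with median of ratios (−0.92) and quantile normalization (−0.71). Properdin (Cfp), which stabilizes the alternative pathway convertase, was at 18 ± 1.72 in NDWT, 20.7 ± 4.62 in HFWT, 19.8 ± 4.09 in NDKO and 25.5 ± 13.3 in HFKO and not called. In HFKO Cfp ran from 15.9 to 48.5, the widest spread relative to its mean of the 8 macrophage-made genes in that group.

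Most macrophage markers rose on CDAHFD, as C1q and the 2 receptors did, while Fcna fell and Vsig4 and Cfp were not called. Of 12 markers, 11 were called higher in WT and 10 in null mice. Of all tested genes, 44.1% and 41.9% were called higher and 4.62% and 4.0% lower. The summed FPKM of the 12 markers ranged over 129.6 to 185 in NDWT, 1075 to 1519 in HFWT, 129 to 209 in NDKO and 701 to 1516 in HFKO. Adgre1 (F4/80) rose by 1.32 and 1.58 and Cd68, a lysosomal protein of macrophages, by 2.98 and 2.83. Of 7 Kupffer cell markers, 3 were called lower in both genotypes (Clec4f, Timd4 and Cd163), with 0 called higher in WT and 1, Cd5l, in null mice. Clec4f fell by 1.22 and 0.77 on the log2 scale, and the sum over Kupffer markers ranged over 194 to 254 in NDWT, 143 to 279.8 in HFWT, 157 to 264 in NDKO and 182 to 351 in HFKO. None of the markers on either list was at 0 in all libraries of a group. The part that changes in macrophage number or kind had in the complement changes was not tested.

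Per unit of these markers the macrophage-made genes separated further. C1qa over Adgre1 was 6.35 ± 1 in NDWT, 7.02 ± 0.765 in HFWT, 7.82 ± 1.21 in NDKO and 6.3 ± 1.59 in HFKO, with overlap among all groups, whereas C1qa over Cd68 went from 5.36 ± 0.58 and 6.3 ± 0.608 to 1.88 ± 0.124 and 2.1 ± 0.374. C3ar1 over Adgre1 was higher on CDAHFD, at 0.0996 ± 0.0242 in NDWT, 0.522 ± 0.0422 in HFWT, 0.109 ± 0.016 in NDKO and 0.395 ± 0.111 in HFKO. Over Cd68 the rise of C3ar1 was smaller, at 0.0839 ± 0.0161 in NDWT, 0.141 ± 0.0224 in HFWT, 0.0882 ± 0.0137 in NDKO and 0.129 ± 0.00556 in HFKO. Vsig4 over Adgre1 was lower, at 2.27 ± 0.103 in NDWT, 0.722 ± 0.179 in HFWT, 2.75 ± 0.318 in NDKO and 0.995 ± 0.399 in HFKO, as was Fcna over Adgre1, at 3.87 ± 0.627 in NDWT, 0.642 ± 0.0984 in HFWT, 5.36 ± 0.782 in NDKO and 0.829 ± 0.414 in HFKO. Fcna over the Kupffer marker Clec4f was 0.533 ± 0.0591 in NDWT, 0.528 ± 0.121 in HFWT, 0.617 ± 0.0724 in NDKO and 0.423 ± 0.0243 in HFKO, and in WT the range on CDAHFD contained that on control diet, with HFWT spanning 0.381 to 0.697. In TSP-1 null mice every HFKO library was below every NDKO library in that ratio. Over Clec4f the other macrophage-made genes were higher in every CDAHFD library than in any control library of their genotype. Vsig4 went from 0.316 ± 0.0326 to 0.575 ± 0.0708 in WT and from 0.316 ± 0.0142 to 0.546 ± 0.104 in null mice. C1qa went from 0.874 ± 0.0863 to 5.98 ± 2.32 and from 0.899 ± 0.0953 to 3.96 ± 2.01. The 7 Kupffer cell markers differed among themselves, with log2FC from −4.79 to 0.34 in WT. The spread of the ratios to Adgre1 in HFKO came mostly from replicate 5, the lowest in each: C1qa at 3.77 against 6.17 to 8.14 in the other HFKO mice, C3ar1 at 0.200 against 0.424 to 0.462, Vsig4 at 0.357 against 0.969 to 1.44 and Fcna at 0.222 against 0.645 to 1.30.

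**Figure D4:**
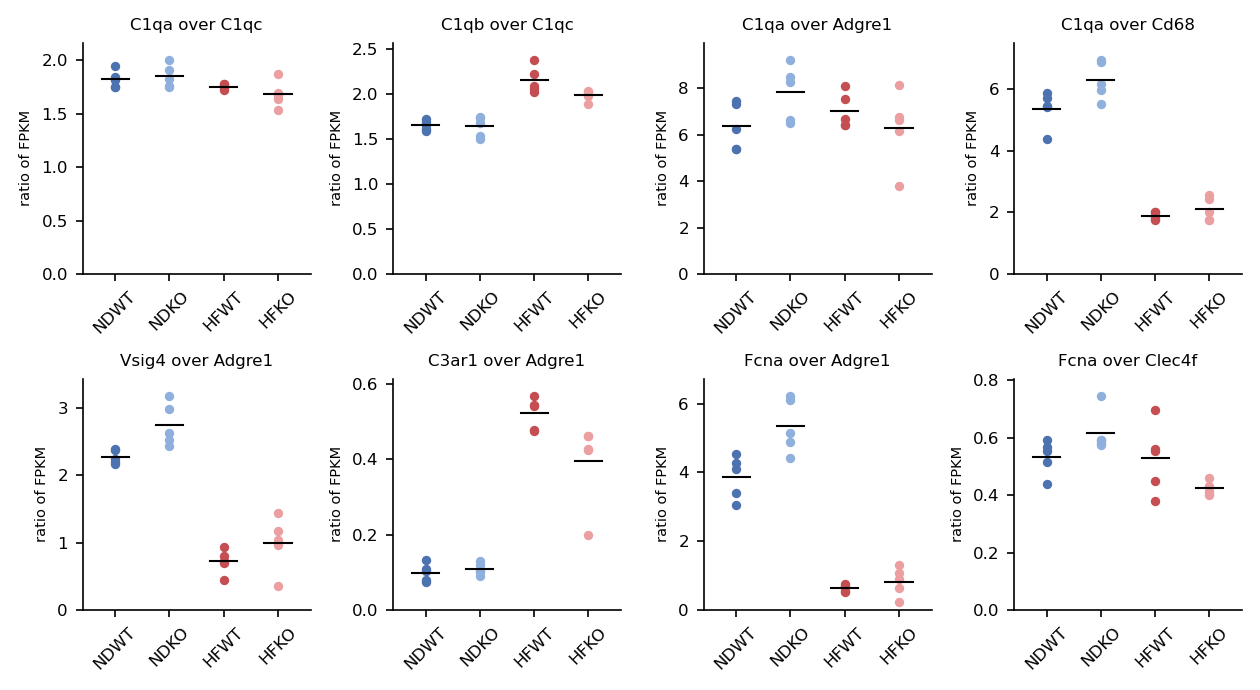
Ratios of FPKM in each of 20 libraries (points) with group means (bars): C1q chains to each other, then macrophage-made complement genes to the macrophage markers Adgre1 and Cd68 and the Kupffer cell marker Clec4f. C1qb over C1qc and C3ar1 over Adgre1 are higher in every CDAHFD library, C1qa over Cd68, Vsig4 over Adgre1 and Fcna over Adgre1 are lower in every one, and C1qa over C1qc, C1qa over Adgre1 and, in WT, Fcna over Clec4f overlap.

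The remaining 5 genes had no common direction. C7, which joins C5b and C6 on the membrane and is made by stromal and endothelial cells more than by hepatocytes, read 0.634, 0.398, 0.477, 0.559 and 0.481 FPKM in NDWT, 3.48, 2.04, 2.06, 1.13 and 1.79 in HFWT, 0.376, 0.439, 0.711, 0.647 and 0.511 in NDKO and 2.12, 0.968, 2.11, 2.24 and 2.13 in HFKO. It rose in both genotypes without overlap (log2FC 1.78 ± 0.25, FDR 3.00e-06, and log2FC 1.64 ± 0.25, FDR 9.09e-06), on 18 to 40 fragments in NDWT libraries and 61 to 169 in HFWT. All 7 stellate cell markers were called higher in both genotypes, beside 44.1% of all tested genes in WT and 41.9% in null mice. The sum of these markers ranged over 11.3 to 16.7 in NDWT, 109.8 to 245 in HFWT, 13.7 to 15.3 in NDKO and 99.6 to 192 in HFKO. Whether C7 followed these cells was not tested. C6, 173 kb away on chromosome 15, did not rise.

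Factor D (Cfd, adipsin), the protease that activates factor B and is best known from fat cells, was near the floor: it read 1.21, 0.649, 1.83, 0.316 and 2.23 FPKM in NDWT, 0.302, 0.172, 0.534, 0.163 and 0 in HFWT, 0.21, 0.238, 0.464, 0.407 and 0.161 in NDKO and 0.245, 0, 0.06, 0.164 and 0.114 in HFKO, which are 5 to 41 fragments in NDWT and 0 to 5 in HFKO. The NDWT libraries were spread from the level of the other groups to several times above it. Cfd was called lower on CDAHFD in WT (log2FC −1.99 ± 0.50, FDR 0.0013) and not in null mice (log2FC −0.93 ± 0.50, FDR 0.0998). Cfd passed the filter on low values through exactly 5 libraries, 4 of them NDWT, the group where it was high (NDWT replicates 1, 2, 3 and 5, and HFWT replicate 3), so that it was not tested when any of these was left out. In null mice it was called lower with median of ratios (FDR 0.0265), quantile normalization (FDR 2.35e-04) and only the groups compared (FDR 0.049). Of 6 adipocyte markers none passed the filter on low values. Their sum ranged over 0.094 to 1.59 in NDWT, 0.172 to 0.401 in HFWT, 0.046 to 0.212 in NDKO and 0.212 to 0.36 in HFKO, with Lep at 0 in every library and Adipoq at most a mean of 0.0282. Cidea made up most of it in NDWT, at 0.655 ± 0.599 in NDWT, 0.186 ± 0.103 in HFWT, 0.0852 ± 0.0643 in NDKO and 0.146 ± 0.0331 in HFKO. Its part in the Cfd values was not tested.

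Among the membrane regulators, Cr1l (Crry), which blocks C3 convertases on mouse cells, read 19.1 ± 1.32 in NDWT, 24.5 ± 2.49 in HFWT, 17.6 ± 1.6 in NDKO and 22.4 ± 1.22 in HFKO, with no overlap between diets but differences of 0.36 (FDR 3.78e-04) and 0.35 (FDR 4.64e-04) that stayed under the fold threshold and turned negative under median of ratios. Cd55, the decay accelerator of convertases, read 2.16 ± 0.393 in NDWT, 2.78 ± 0.586 in HFWT, 1.69 ± 0.267 in NDKO and 3.06 ± 0.524 in HFKO. It was called higher in null mice (log2FC 0.81 ± 0.15, FDR 1.04e-04) and not in WT (log2FC 0.34 ± 0.15, FDR 0.0552), with no call for the difference between them (log2FC 0.47 ± 0.22, FDR 0.305). The call was lost under median of ratios and quantile normalization. Cd46, a cofactor for factor I known in mice from the testis, was the member not tested, at no more than 0.293 FPKM in any library.

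Over all members the diet groups did not overlap for 18 of 29 genes in WT and 15 in null mice, beside 56.2% and 57.8% of all tested genes. The comparisons in WT and in null mice share no library. In both, C1qa, C1qb, C1qc, C3ar1, C5ar1, C7 and Cfb were called higher and C8b, Mbl1, Mbl2 and Fcna lower. The share of all tested genes called in both comparisons is not given here. In each alone it was 44.1% and 41.9% higher and 4.62% and 4.0% lower.

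Genotype labels separated few members. On the control diet 0 were called higher and 2 lower in libraries labelled TSP-1 null, beside 1.74% and 3.03% of all genes, and the groups did not overlap for 3 (C4b, C8a and C8b), beside 9.03%. C8a was lower in all 5 NDKO libraries than in any NDWT library (log2FC −0.59 ± 0.15, FDR 0.0143). That call was lost when NDWT replicate 3, NDWT replicate 5 or NDKO replicate 2 was left out. Cfd was the other (log2FC −1.57 ± 0.50, FDR 0.0414), with overlap, and was lost without NDKO replicate 1, 2, 4 or 5 (FDR 0.0521 to 0.0903). Cfd passed the filter on low values mainly through NDWT libraries, where it was high, so the filter itself could favour this call. With no filter Cfd was not called (limma FDR 0.0715). Mbl1 (log2FC −0.33 ± 0.07, FDR 0.00645) and C4bp (log2FC −0.42 ± 0.10, FDR 0.0088) passed the FDR but not the fold threshold. The summed terminal components were lower in NDKO than in NDWT by mean, 792 ± 61.4 against 929.5 ± 61.5, with ranges of 715 to 881 and 846 to 1010.4 that overlapped. The C1q chains differed by 0.06 or less on the log2 scale (95% interval for C1qa −0.33 to 0.45).

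On CDAHFD limma called 0 members higher and 0 lower, beside 0.165% and 0.33% of all genes. Mbl1 and C6 had the lowest FDR among the members, given below. Voom weights on the recovered fragments gave 1 call, C6. C6 differed by −0.70 ± 0.19 (FDR 0.074), with overlap. Mbl1 was the only member whose groups did not overlap, beside 4.98% of all genes: it read 162, 142, 155, 151 and 138 in HFWT and 121, 133, 116, 116 and 125 in HFKO (log2FC −0.29, FDR 0.0646). The intervals of the difference were −0.56 to 0.22 for C1qa, −0.55 to 0.34 for C5ar1 and −0.08 to 0.35 for C3, so changes of those sizes could not be told from none. For the diet by genotype interaction limma and voom both called 0 members in either direction, beside 0.337% and 0.31% of all genes in limma. The lowest limma FDR of a member was 0.251, for C4bp (log2FC 0.34 ± 0.14).

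**Figure D5:**
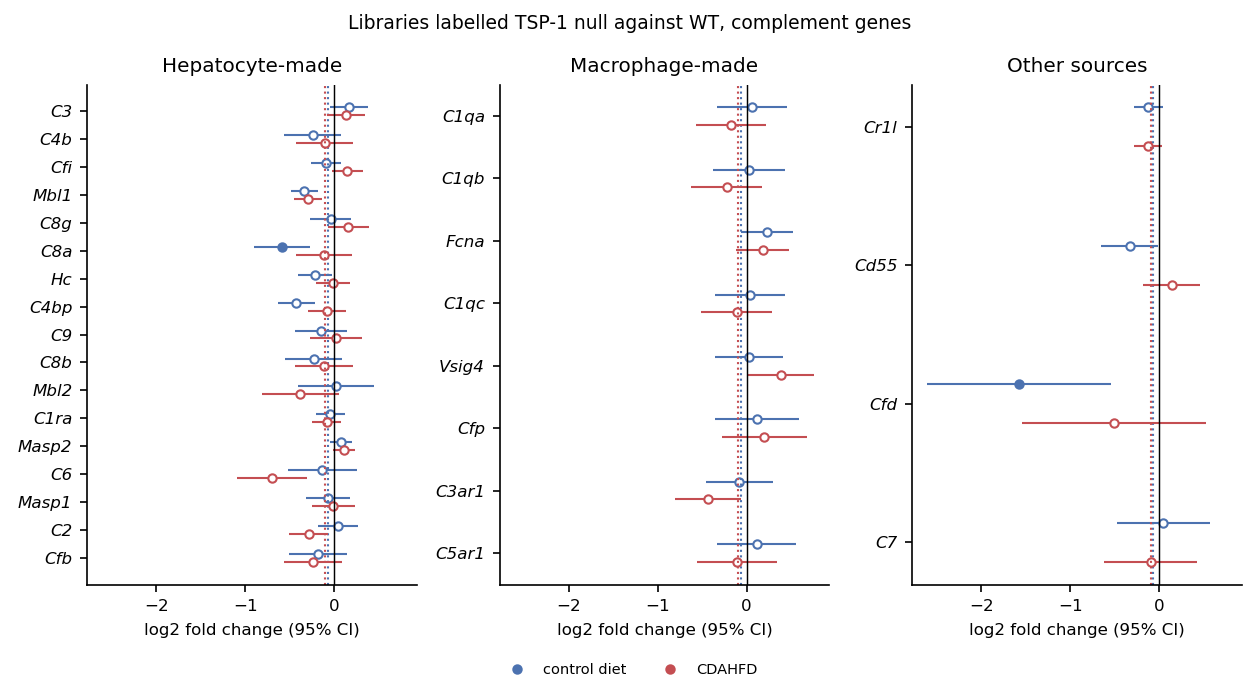
log2FC of libraries labelled TSP-1 null against WT for the 29 tested complement genes, on the control diet (blue) and on CDAHFD (red), with 95% confidence intervals from limma. Filled points passed both thresholds: C8a and Cfd on the control diet, and none on CDAHFD.

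Of 30 further genes of the pathway, 29 were in the table and 24 were tested. On CDAHFD 7 were called higher and 8 lower in WT, beside 44.1% and 4.62% of all tested genes. In null mice 5 were called higher and 5 lower, beside 41.9% and 4.0%. The higher ones were led by the subunits of complement receptors 3 and 4, which bind C3 fragments on leukocytes: Itgax at 5.65 and 5.53, Itgam at 4.49 and 4.05, and their shared partner Itgb2 at 3.65 and 3.55 (log2FC, limma FDR at most 4.55e-11). Cd93, a C-type lectin receptor of myeloid and endothelial cells, rose by 2.41 and 2.35. The lower ones were led by the membrane regulator Susd4, at −2.92 and −3.84 from 12.1 ± 2.31 FPKM in NDWT. By genotype label, Cd59a, which blocks insertion of C9, was lower in NDKO (log2FC −1.40 ± 0.09, FDR 5.80e-09) and in HFKO (log2FC −1.24 ± 0.09, FDR 6.42e-08), as was its neighbour Cd59b, which shares much of its sequence (log2FC −2.10 ± 0.27, FDR 8.05e-05, and log2FC −1.59 ± 0.27, FDR 0.00473). These 2 were the only genes of the list called by genotype label. Cd59a lies 14 Mb from Thbs1 on chromosome 2, the chromosome that also carries Hc, C8g and Fcna at 83.1 to 92.6 Mb from Thbs1.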

How the data were processed

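Liver poly(A) RNA of 20 mice (5 per group) was sequenced. The deposited table holds FPKM for 38924 genes, which the authors made with QuickRNASeq; the submitters' processing notes name STAR 2.5.2 and featureCounts of Subread 1.5.1. Those notes list a human genome build, but 99.8% of the 37607 gene identifiers found in GENCODE M21 overlap their GRCm38 position. FPKM multiplied by length gave whole fragments (tolerance 0.15) in every library for the values that could be checked (at least 90.1%). Depth was 15641546 to 23276322 fragments, so 3 fragments on 1 kb equal 0.129 to 0.192 FPKM. Floors cover counting error only. Libraries within groups were not copies (chi-square per degree of freedom at least 13.1 over 40 pairs).

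Groups follow the sample labels. A single limma 3.58.1 model (R 4.3.3, eBayes with trend) of all 20 libraries was fitted to log2(FPKM + 0.1) as given in the results, and was tested on simulated data. The recovered fragments were used for voom as an alternative only, and no negative binomial model was applied. Members, lists and tests were chosen with earlier results of these data known. All 30 members are described. Values per library are given for members called in a diet comparison with an absolute log2FC above 1 in either genotype, for members called by genotype label, and for the C1q chains and C3. Other genes are named only if called, at most 6 per list by FDR, with Lep, Cidea and per-library values of Mbl1 and C6 added after their values were seen. Results were recomputed under 13 other settings and without each mouse. Promoters came from RefSeq (GRCm38.p6). Python 3.11.15 with pandas 2.3.3, numpy 2.4.6 and matplotlib 3.10.9 made tables and figures. Some genes of the wider pathway list are not reported here.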

Additional observations from a re-analysis of the deposited data

Results flagged for a closer look

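Of 120 combinations of a complement gene and a group, 7 held 1 library far from the other 4 by Dixon's test, 5.83% of those examined, where chance alone gives about 1 in 20. Of these, 2 came from HFKO replicate 5: C1qa at 241.9 FPKM against 108 to 147 in the other HFKO mice, and Cfp at 48.5 against 15.9 to 23.1. Another 2 came from NDWT replicate 2: C8b at 185.7 against 134 to 144, and C1ra at 103.6 against 74.8 to 80.3. C7 was at 0.968 in HFKO replicate 2 against 2.11 to 2.24. Masp1 was at 39.7 in NDKO replicate 5 against 25.7 to 28.8, and Cr1l at 16.8 in NDWT replicate 1 against 19.4 to 20.1. Leaving out any of these 5 mice changed no diet call of C1qa, C7 or C8b. No member differed between the genotypes in its response to diet at the FDR threshold.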

How the results depend on the processing

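The calls of the C1q chains, C3ar1, C5ar1, C7, C8b, Mbl2 and Fcna in both diet comparisons held under all 13 settings and with each mouse left out. Calls lower on CDAHFD went from 9 to 14 in WT and from 5 to 13 in null mice with median of ratios, and in null mice to 11 with no fold change threshold, whose construction adds smaller changes. The 2 calls lower in NDKO became 1 with a pseudocount of 0.01, no filter or only the groups compared (Cfd lost), with FPKM above 1 in at least 5 libraries (Cfd not tested), and 1 with median of ratios or quantile normalization (C8a lost), where the cause was not tested. With no fold change threshold they became 4. On CDAHFD voom gave 1 lower call by genotype, C6. Leaving out 1 mouse gave 6 to 7 higher and 7 to 10 lower calls in WT, 7 to 8 higher and 3 to 7 lower in null mice (3 without HFKO replicate 3 or 4), 0 to 2 lower on the control diet and 0 to 1 lower on CDAHFD by genotype label (C6, without HFKO replicate 2), with Cfd not tested in 5 of these fits. The other counts were 0 throughout. With the replicate number as a block, the replicate block fit gave 7 and 9, 8 and 5, and 0 and 2 calls, as without it. Replicate numbers did not pair the mice: 0 of 5 numbers correlated above 0.1 in any comparison. No call of a single member changed sign. Under another scaling the sign of the diet difference turned for 8 of 29 members in WT and 7 in null mice, none of them called as reported.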

Other observations

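Some neighbouring complement genes were called in the same direction on CDAHFD in WT (the C1q genes, C8a with C8b, and C8g with Fcna), and others were not. C2 and Cfb, 85 bases apart on chromosome 17, had log2FC of 0.20 and 0.65 in WT, and C4b, 112 kb from Cfb, −0.57. C6 and C7, 173 kb apart on chromosome 15, had −0.07 and 1.78, and C4bp and Cd55, 172 kb apart on chromosome 1, 0.04 and 0.34.

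Among 13 acute phase genes, 2 were called higher and 3 lower in WT and 5 higher and 0 lower in null mice. Of all tested genes, 44.1% were called higher and 4.62% lower in WT, and 41.9% and 4.0% in null mice. Lcn2 had a log2FC of 4.87 and 5.34 and Orm2 4.13 and 3.44, while Fgg had −0.72 and −0.36 and Itih4 −0.82 and −0.18. The hepatocyte-made complement genes had 1 higher and 7 lower in WT and 1 and 4 in null mice. Of 7 neutrophil markers, 4 were tested and all 4 were higher in both genotypes. Of 6 bile duct markers, 5 were tested and all 5 were higher in both. Of 7 T and B cell markers, 6 were higher in both. A gene could pass the filter on low values through CDAHFD libraries alone, so the filter could favour higher calls in these lists. The neutrophil markers, for example, summed to 2.54 to 5.32 FPKM in NDWT and 23.2 to 39.0 in HFWT. Of 6 endothelial markers, 1 was higher in WT and 2 in null mice.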
